A study of Homo sapiens with 95 samples.

Results

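Among the 8 cell lines of this study, 2 carry no altered gene and serve as controls, and their vehicle-treated samples were compared here with each other. The GFP line had received a Cas9 plasmid with a green fluorescent reporter but no guide RNA and is the control of the knockout lines FAT1 and CDKN2A. The HcRed line had received an empty vector with a red fluorescent reporter and is the control of the lines overexpressing NRF2, FGFR1, NRG1 or PIK3CA. All lines derive from AALE cells, an immortalized human bronchial epithelial line. Each was exposed to 1 of 4 treatments: the DMSO vehicle, CSC (a condensate of cigarette smoke, 24 μg/ml), BaP (the polycyclic hydrocarbon benzo[a]pyrene, 173 μM) or NNK (a nitrosamine of tobacco, 490 μM). The comparison takes the 3 GFP and 3 HcRed samples with DMSO, 6 of the 95 samples, chosen by their labels. The 18 samples of both control lines with CSC, BaP or NNK, 3 per line and compound, were then used to ask whether the difference held, and the 18 DMSO samples of the other 6 lines were used to ask which control the differing genes followed. No source used here states whether either control line is 1 clone, or how the lines differ in passage number.

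Bronchial basal epithelial cells attach to the basement membrane through hemidesmosomes and laminins, and to each other through desmosomes, both anchored to keratin filaments. Cells of this type that are grown in culture or wounded also make matrix and cytoskeletal proteins better known from mesenchymal cells, such as fibronectin. D-type cyclins pair with CDK4 and CDK6 to inactivate the retinoblastoma protein and so let a cell leave G1. When amino acids run short or unfolded proteins accumulate, kinases that phosphorylate eIF2α raise the translation of the transcription factor ATF4, which switches on genes of serine synthesis, amino acid transport and stress signalling.

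The data are raw read counts per gene from sparse full length (SFL) sequencing, a pooled and barcoded method with ribosomal RNA depletion. The 6 DMSO libraries held 694898 to 1319161 counted reads, with 14537 to 15569 genes having a read, and 3 reads correspond to 2.27 to 4.32 CPM, the reads of a gene scaled to library size, in them. The libraries with CSC held 987704 to 1517412 reads, those with BaP 460538 to 1494564 and those with NNK 338978 to 774472, so that the NNK samples resolve small differences least. HcRed replicate 2 was the smallest DMSO library, and raw reads of the groups can therefore overlap where scaled levels do not, as for KRT5, KRT14, EGFR and SLC7A5. All 12 bronchial basal markers had reads in the DMSO samples, with summed levels of 8980 to 9430 CPM in GFP and 10200 to 10600 CPM in HcRed, whereas the secretory markers SCGB1A1, MUC5AC and SCGB3A1 had no read in them. Fibroblast markers summed to 10.7 to 14.9 CPM in GFP and 10.8 to 31.4 CPM in HcRed and leukocyte markers to 8.75 to 11 and 8.57 to 15.3 CPM, with CD3E and ITGAM at 0 reads. The reporters and Cas9 are not among the genes counted, so the labels could not be checked by them. GFP replicate 3 stood apart from the other GFP samples: with DMSO it held 102 reads of FGFR1 against 34 and 32 in replicates 1 and 2, and 1047 of ULK4 against 113 and 115. It also held the most reads of 2 genes that are lower in GFP than in HcRed, KRT7 at 43 against 4 and 12 and SPARC at 17 against 1 and 4, and whether this library holds RNA of other cells was not tested. With NNK, GFP replicate 3 was the smallest library and lay at -82.0 on the second principal component of the 24 samples, against -4.5 and -19.5 for the other GFP samples. Counts are therefore also given without GFP replicate 3 where they lead an account.

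With DMSO, genes with large losses in GFP cells relative to HcRed cells included KRT7, a simple-epithelium keratin, CCND2, which encodes cyclin D2, and the matrix and actin-binding genes FN1, SPARC, VCAN and TPM2. Genes with large gains included UGT8, an enzyme of galactolipid synthesis, RIC3, a chaperone of acetylcholine receptors, and MYEF2, a transcriptional repressor, and genes of the ATF4 response were higher as well. Of 14218 genes with a mean count above 1 over the 6 samples, 2518 (17.7%) passed an adjusted p of 0.05 in limma-voom, 1246 (8.76%) higher and 1272 (8.95%) lower in GFP. Of these, 557 differed by more than 2-fold, 192 of them higher and 365 lower in GFP, and the median log2 fold change over all genes tested was -0.00195. Without GFP replicate 3, 2042 of 14060 genes (14.5%) passed, 1041 higher and 1001 lower, and 1883 of the 2518 genes (74.8%) were still called in the same direction. DESeq2 called 989 genes with DMSO, all of them also called by limma.

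CCND2 (chromosome 12, 4378937 to 4414519, GRCh37) was counted 6, 11 and 25 times in the GFP samples and 177, 101 and 159 times in the HcRed samples. Its level was 12 ± 7.0 CPM in GFP and 150 ± 5.8 CPM in HcRed (mean ± SD, n = 3), a log2 fold change of -3.71 ± 0.271 (SE) with an adjusted p of 5.87e-21 in limma-voom, and it was -4.19 without GFP replicate 3 and -3.33 without GFP replicate 1. The groups did not overlap, which held for 31.8% of all genes tested. CCND1, which encodes cyclin D1, had 46, 62 and 61 reads in GFP and 173, 99 and 173 in HcRed and was also lower (log2 -1.62, adjusted p = 5.41e-16, limma). CCND3, encoding cyclin D3, had 56, 60 and 86 against 73, 39 and 67 reads, with overlapping groups and a log2 difference of -0.06 that did not pass (adjusted p = 0.853, limma). Of the 15 genes listed for D cyclins, CDK4/6 and the RB family, 4 were higher in GFP and 2 lower (40%, against 17.7% of all genes). The list's median was 0.19 on the log2 scale. The higher genes included the cell cycle inhibitors RB1, with 391, 394 and 533 reads in GFP and 271, 158 and 274 in HcRed (log2 0.68), and CDKN1A, which encodes p21, with 175, 208 and 274 against 137, 78 and 115 (log2 0.76). The lower genes were CCND1 and CCND2.

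The loss of CCND2 reads held with every compound. With CSC it had 5, 5 and 6 reads in GFP and 150, 174 and 128 in HcRed, with BaP 4, 3 and 0 against 180, 208 and 46, and with NNK 2, 2 and 4 against 98, 128 and 56. No GFP sample reached the level of any HcRed sample of the same treatment, as for 35.3%, 29.2% and 27.7% of all genes tested with CSC, BaP and NNK. The log2 fold changes were -4.69, -5.26 and -4.92, all larger in size than with DMSO, where GFP replicate 3 had the most reads of any GFP sample, and the test of the difference between treatments did not pass (adjusted p = 0.876, limma F test). Over the 12 samples of each line, levels ran from 0 to 19.7 CPM with a median of 5.21 in GFP and from 96.2 to 176 with a median of 134 in HcRed.

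**Figure D1:**
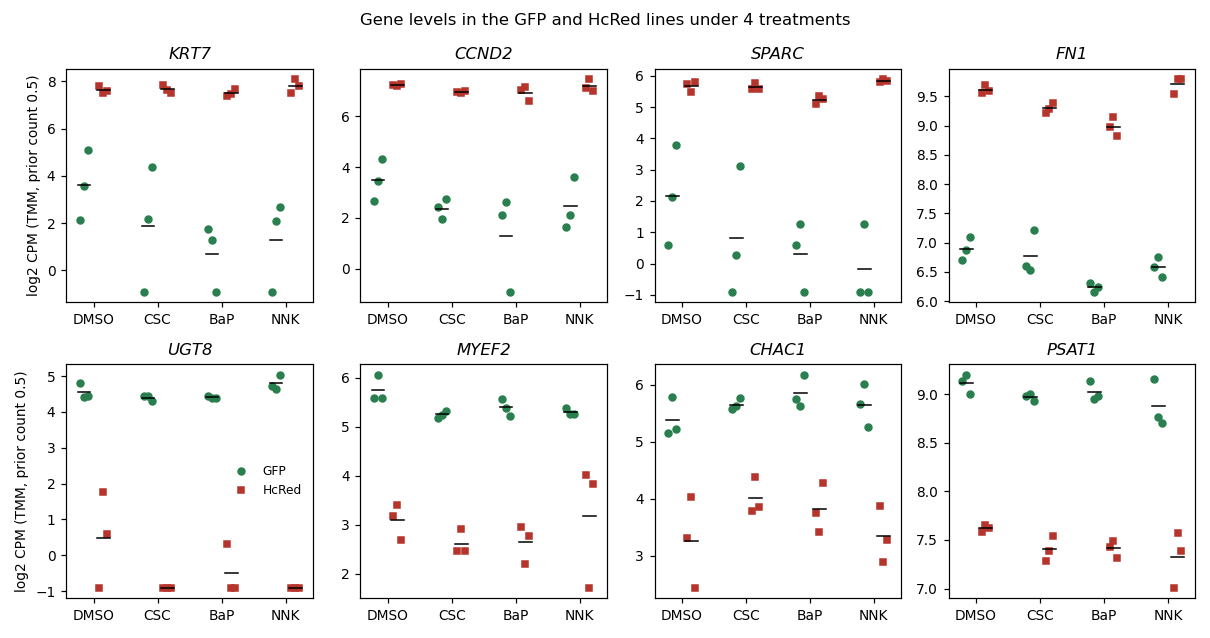
Level of lead genes (log2 CPM after TMM scaling, prior count 0.5) in each GFP and HcRed sample by treatment, with 3 samples per line and treatment. The samples of GFP lay below those of HcRed for KRT7 and CCND2 in every treatment, and the GFP sample nearest to HcRed with DMSO, replicate 3, had 43 reads of KRT7 and 25 of CCND2.

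All keratin genes that passed the test were lower in GFP. Of 57 keratin genes, 17 were tested with DMSO, of which 9 were lower and 0 higher in GFP, with a median log2 fold change of -0.51. The calls were 10 lower of 19 tested with CSC, 8 of 17 with BaP and 7 of 15 with NNK, with 0 higher each time. Over all genes tested, the shares called higher and lower were 10.5% and 11.6% with CSC, 7.42% and 7.61% with BaP, and 5.44% and 7.11% with NNK. Of the 9 genes lower with DMSO, 6 were lower in all 4 treatments. Without GFP replicate 3 the DMSO count was 9 of 16.

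KRT7 (chromosome 12, 52626304 to 52645970) had 4, 12 and 43 reads in GFP and 260, 129 and 195 in HcRed, which is 16.4 ± 15.6 against 199 ± 19.3 CPM (SD, n = 3). Its log2 fold change was -3.95 ± 0.284 (adjusted p = 2.77e-21, limma), and it was -4.81 without GFP replicate 3 and -3.26 without GFP replicate 1. The basal keratins differed by less. KRT5, the main keratin of basal cells, had 3592, 3811 and 4359 reads in GFP and 4906, 2851 and 4108 in HcRed (log2 -0.24, adjusted p = 7.76e-10, limma). KRT14, its partner, was at 372, 427 and 538 against 631, 423 and 476 reads (log2 -0.42). Keratins of activated or wounded epithelium lay between: KRT17 had 689, 811 and 918 against 1510, 997 and 1281 reads (log2 -0.88), and KRT6A, chosen after its values were seen like KRT5, KRT8 and KRT19, 1140, 1377 and 1575 against 2513, 1399 and 2026 (log2 -0.77). The simple-epithelium keratins KRT8 and KRT19 were lower by 0.51 and 0.59 on the log2 scale.

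Genes of matrix attachment moved in both directions. Of 15 hemidesmosome and laminin genes tested, 4 were higher and 8 lower in GFP (80%, against 17.7% of all genes), with a median of -0.17. PLEC, encoding the linker plectin, had 1574, 1937 and 2015 reads in GFP and 3470, 2211 and 2742 in HcRed (log2 -0.84). Genes of its transmembrane partners went the other way. ITGB4, encoding integrin β4, had 847, 956 and 1080 reads in GFP and 799, 511 and 617 in HcRed (log2 0.35), and COL17A1, encoding collagen XVII, 588, 642 and 725 against 542, 386 and 525 (log2 0.20, adjusted p = 0.0364 in limma and 0.234 in DESeq2). With CSC, BaP and NNK the list gave 4 higher and 7 lower, 5 higher and 7 lower, and 3 higher and 7 lower. Of 12 desmosome genes, 4 were higher and 1 lower with DMSO (41.7%). They include DSP, encoding desmoplakin, with 5631, 4983 and 6383 reads against 4522, 2788 and 3948 (log2 0.36), DSC3 (log2 0.36) and PERP (log2 0.30).

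The matricellular and mesenchymal list had 22 genes tested, of which 1 was higher and 10 lower in GFP (50%, against 17.7% of all genes). Its median log2 fold change was -1.13. With CSC 1 was higher and 8 lower of 23, with BaP 1 and 9 of 24, and with NNK 1 and 8 of 20. Those shares were 39.1%, 41.7% and 45%, against 22%, 15% and 12.5% of all genes. Without GFP replicate 3, 1 was higher and 9 lower of 23 with DMSO. Of 22 collagen chain genes tested, by contrast, 1 was higher and 2 lower with DMSO (13.6%), with a median of -0.03. The summed fibroblast markers reached 31.4 CPM in HcRed and 14.9 CPM in GFP, 4 of the 8 had a read in the DMSO samples, and their part in these differences was not tested.

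FN1 (chromosome 2, 216225163 to 216300796), encoding fibronectin, had the smallest adjusted p of the comparison, with 107, 123 and 174 reads in GFP and 892, 578 and 785 in HcRed. Its log2 fold change was -2.72 ± 0.095 with DMSO (adjusted p = 2.21e-43, limma), and -2.54, -2.75 and -3.11 with CSC, BaP and NNK. The GFP and HcRed levels were separate in all 24 samples, at 71.1 to 147 CPM in GFP and 452 to 886 CPM in HcRed. SPARC, a collagen-binding matricellular protein, had 1, 4 and 17 reads in GFP and 62, 31 and 56 in HcRed (log2 -3.45, and -4.38 without GFP replicate 3 or -2.69 without GFP replicate 1). VCAN, the proteoglycan versican, had 2, 7 and 9 against 63, 39 and 59 reads (log2 -3.44). The collagen chaperone FKBP10 was at 4, 2 and 8 reads in GFP and 56, 41 and 44 in HcRed with DMSO (log2 -3.54) and at 0 reads in all 3 GFP samples with NNK against 131 in HcRed, which is at least 38.2-fold lower, with 3 counts over the group as the floor.

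TPM2, an actin-binding tropomyosin, had 13, 9 and 12 reads in GFP and 121, 69 and 97 in HcRed (log2 -3.27). Further genes of this kind, chosen after their values were seen, were lower too: THBS1 (log2 -1.32), TGFBI (log2 -1.28) and the intermediate filament gene VIM (log2 -1.24). VIM did not pass with NNK, where its log2 fold change was -0.22 (adjusted p = 0.69, limma). TNC, encoding tenascin-C, was the member that was higher in GFP, with 106, 131 and 133 reads against 73, 48 and 60 (log2 0.80), and it was higher with CSC, BaP and NNK as well, by 1.13, 0.99 and 0.98.

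Some antimicrobial and secreted defence genes were lower in GFP cells. S100A8 and S100A9, the subunits of calprotectin, had 1, 1 and 3 against 28, 10 and 22 reads (log2 -3.52) and 8, 14 and 14 against 108, 64 and 98 reads (log2 -3.11). The protease inhibitor SLPI had 4, 4 and 6 reads in GFP and 42, 16 and 33 in HcRed (log2 -2.79). PI3, encoding elafin, had 2 reads in all GFP samples and 42 in all HcRed samples, a ratio of 25 after scaling to the library totals, with an exact 95% counting interval of 6.50 to 213.0. Of 11 S100 genes tested 1 was higher and 4 lower (45.5%, against 17.7% of all genes). Of 7 airway secretory and antimicrobial genes 0 were higher and 2 lower (28.6%), SLPI and PI3. The complement gene C3 was at 1, 2 and 5 against 24, 13 and 22 reads (log2 -3.04). Of 7 complement and acute phase genes tested, 0 were higher and 1 lower (14.3%), and with CSC 1 was higher and 1 lower. With NNK, S100A8 had no read in the GFP samples against 43 in HcRed, at least 12.5-fold lower. Of 32 interferon-stimulated genes, 1 was higher and 6 lower, with a median of -0.52. That share of 21.9% was near the 17.7% of all genes. With NNK 0 were higher and 2 lower of 29 (6.9%, against 12.5% of all genes), and 0 of the DMSO calls held in all 4 treatments. The lower genes included IFIT1 with 3, 2 and 8 against 15, 11 and 22 reads with DMSO (log2 -2.10).

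TERT, encoding the catalytic subunit of telomerase, had 21, 32 and 87 reads in GFP and 374, 241 and 291 in HcRed (log2 -3.09 ± 0.176, adjusted p = 1.73e-27, limma). Under the compounds the log2 fold changes were -3.94, -4.36 and -3.97. AALE cells were immortalized with an introduced TERT coding sequence, so reads of that sequence and of the gene itself cannot be told apart in gene counts.

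Growth factors act through receptors such as that of EGF, through ERK and through early-induced transcription factors. In the EGF receptor family 0 genes were higher and 2 lower of 12 (16.7%), among AP-1, EGR and MYC genes 1 and 3 of 16 (25%), and among ERK feedback genes 1 and 4 of 14 (35.7%), against 17.7% of all genes. EGR1 and MYC, transcription factors induced early after growth stimulation, had 23, 45 and 50 against 79, 95 and 126 reads (log2 -1.56) and 27, 34 and 57 against 108, 63 and 98 reads (log2 -1.44). EREG, encoding the EGF receptor ligand epiregulin, had 21, 12 and 17 reads in GFP and 49, 31 and 46 in HcRed (log2 -1.58), and EGFR itself 402, 408 and 558 against 721, 420 and 646 (log2 -0.62). DUSP6, a phosphatase that feeds back on ERK, was at 8, 11 and 5 against 19, 16 and 22 reads (log2 -1.52). EGR1, MYC, EREG, EGFR and DUSP6 had negative log2 fold changes with CSC, BaP and NNK too, from -0.73 for EGFR to -1.99 for EREG.

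The ATF4 amino acid response genes were the list with the largest share of calls among those described here. Of 17 genes tested with DMSO, 12 were higher and 3 lower in GFP (88.2%, against 17.7% of all genes), with a median log2 fold change of 1.01. With CSC 10 were higher and 4 lower, with BaP 11 and 2, and with NNK 7 and 4 of 16, and the medians were 0.52, 0.92 and 0.61. Without GFP replicate 3, 11 were higher and 3 lower. Subtracting the median difference of each gene's own chromosome arm left a median of 0.89.

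The serine synthesis genes of the list were among its members higher in GFP. PSAT1 had 577, 615 and 654 reads in GFP and 226, 141 and 200 in HcRed, which is 554 ± 36.8 against 196 ± 4.81 CPM (SD, n = 3), and its log2 fold change was 1.47 ± 0.088 (adjusted p = 2.03e-26, limma). It was 1.58, 1.62 and 1.60 with CSC, BaP and NNK. PHGDH, the enzyme before it in the pathway, had 244, 248 and 305 against 128, 83 and 126 reads (log2 1.01).

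CHAC1, a glutathione-degrading enzyme and a known ATF4 target, had 36, 57 and 47 reads in GFP and 11, 11 and 5 in HcRed (log2 2.19), and 1.62, 2.17 and 2.30 under the compounds. DDIT3, encoding the stress factor CHOP, had 31, 32 and 27 against 6, 13 and 4 reads with DMSO (log2 1.94). With CSC it had 14, 23 and 12 against 20, 29 and 15 reads (log2 -0.32, adjusted p = 0.459, limma), and the difference between CSC and DMSO did not pass in the interaction test (log2 -2.26 ± 0.493, adjusted p = 0.109, limma). ATF3 had 26, 21 and 41 against 10, 7 and 10 reads (log2 1.40), and VLDLR 73, 68 and 76 against 22, 11 and 20 (log2 1.78). ATF4 itself differed by 0.39 on the log2 scale, with 189, 222 and 194 reads in GFP and 152, 86 and 155 in HcRed, and its adjusted p of 0.0106 in limma became 0.0962 in DESeq2. CEBPG (log2 1.0), STC2 (log2 1.11), TRIB3 (log2 0.58) and SESN2 (log2 0.59) were also higher, though the calls of SESN2 (adjusted p = 0.0444) and TRIB3 were lost in DESeq2 (adjusted p = 0.4 and 0.201) and without any filter on low counts (0.0659 and 0.0511, limma).

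The 3 genes that were lower are DDIT4 (log2 -0.56), an inhibitor of mTORC1, and SLC7A5 and SLC3A2 (log2 -0.44 and -0.30), the light and heavy chains of a large neutral amino acid transporter. SLC7A5 had 940, 1229 and 1394 reads in GFP and 1698, 1077 and 1335 in HcRed. The members of this list therefore did not all move one way. ASNS, asparagine synthetase, had 5, 5 and 4 against 1, 1 and 2 reads and did not pass (adjusted p = 0.219, limma).

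The promoters of the listed genes (250 bases before to 50 after the start, RefSeq, GRCh38.p14) were searched on both strands for TGATGNAA. These are the letters at the core of elements bound by dimers of ATF4 and C/EBP proteins. Since the list was drawn up as ATF4 response genes, its share of matches does not bear on the difference between the lines. The letters were in 1270 of 35116 promoter entries of all genes (3.62%), while each listed gene was searched by a single entry. They were found in 4 of the 16 listed promoters (25%), those of CHAC1, ATF3, ASNS and SLC3A2. Of these, 3 are printed 5′ to 3′ with the match in capitals, to show its place in CHAC1 (chr15:40953221-40953520, plus strand, match on the opposite strand 209 bases before the start), ATF3 (chr1:212565157-212565456, plus strand, 191 before) and ASNS (chr7:97872359-97872658, minus strand, 68 before).
CHAC1: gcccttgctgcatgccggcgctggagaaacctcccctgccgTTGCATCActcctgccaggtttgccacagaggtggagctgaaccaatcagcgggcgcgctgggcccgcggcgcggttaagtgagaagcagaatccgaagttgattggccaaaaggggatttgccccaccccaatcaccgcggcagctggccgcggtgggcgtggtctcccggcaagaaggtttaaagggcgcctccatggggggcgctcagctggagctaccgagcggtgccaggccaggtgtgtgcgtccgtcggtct
ATF3: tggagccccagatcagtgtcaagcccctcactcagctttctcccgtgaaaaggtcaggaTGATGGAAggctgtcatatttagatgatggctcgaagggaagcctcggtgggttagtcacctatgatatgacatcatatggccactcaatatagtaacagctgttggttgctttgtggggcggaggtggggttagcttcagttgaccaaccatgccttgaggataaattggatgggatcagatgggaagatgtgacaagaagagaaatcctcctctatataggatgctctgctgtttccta
ASNS: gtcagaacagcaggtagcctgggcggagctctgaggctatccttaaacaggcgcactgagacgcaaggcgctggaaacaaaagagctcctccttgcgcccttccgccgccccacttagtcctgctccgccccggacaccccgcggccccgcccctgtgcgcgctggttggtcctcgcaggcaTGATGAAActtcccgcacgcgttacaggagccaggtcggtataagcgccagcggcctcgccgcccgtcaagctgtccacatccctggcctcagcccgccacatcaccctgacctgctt
CHAC1 and ATF3 were higher in GFP, ASNS was too low to pass, and SLC3A2, the fourth match, was lower.

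SLC7A11, which encodes the cystine-glutamate antiporter subunit xCT, was the gene whose line difference changed with treatment. With DMSO it had 357, 383 and 400 reads in GFP and 159, 81 and 175 in HcRed, or 342 ± 25.8 against 141 ± 28.4 CPM (SD, n = 3), a log2 fold change of 1.25. With CSC it had 333, 486 and 291 against 237, 341 and 284 reads, a log2 fold change of 0.42. With BaP it had 362, 146 and 134 against 263, 329 and 93 reads (log2 0.60), and with NNK 206, 136 and 69 against 75, 88 and 61 (log2 1.03). The line difference was smaller with CSC than with DMSO by 0.84 ± 0.148 on the log2 scale (adjusted p = 0.00291, limma), while the contrasts of BaP (-0.66, adjusted p = 0.306) and NNK (-0.21, adjusted p = 0.993) did not pass. The 3 contrasts share the 6 DMSO samples. SLC7A11 was the 1 of 14186 genes (0.00705%) called by the F test of the 3 contrasts together, where 798 genes had an unadjusted p under 0.05. DESeq2 called 0 genes in that test, with 272 at an unadjusted p under 0.05, edgeR called 3, SLC7A11, KRT7 and TERT, and 0 passed in limma without replicate 2 of both lines, with 690 at an unadjusted p under 0.05.

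The largest gains in GFP were of genes at low counts. UGT8 had 28, 22 and 27 reads in GFP and 0, 2 and 1 in HcRed with DMSO, a ratio of 21.6 (95% counting interval 7.11 to 107.0). With CSC and NNK it had no read in HcRed, and it was at least 25.1-fold and at least 16.8-fold higher in GFP. RIC3 had 26, 18 and 16 reads against 1, 0 and 2, a ratio of 16.8 (5.48 to 83.7).

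MYEF2 had 49, 69 and 60 reads in GFP and 10, 7 and 6 in HcRed (log2 2.66), and its log2 fold change was 2.63, 2.89 and 2.20 with CSC, BaP and NNK. PRKAA2, a catalytic subunit of the energy sensor AMPK, had 35, 27 and 47 against 5, 4 and 8 reads (log2 2.38). SLC6A9, a glycine transporter, had 43, 40 and 76 against 12, 6 and 9 (log2 2.24). RPS6KA6, ICA1, ENPP5 and ADGRF1 were higher by 2.40, 2.31, 2.28 and 2.23. ULK4, a kinase-like gene, was among the 10 largest gains only through GFP replicate 3: its log2 fold change of 2.64 was 1.56 without that sample, which was also the highest GFP sample for ULK4 with CSC, BaP and NNK, at 685, 261 and 166 reads.

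A further 3 genes had at most 3 reads in the 12 GFP samples of all treatments. TBX1, a developmental transcription factor, had 2 reads against 77 in HcRed, a ratio of 34.9 (95% counting interval 9.33 to 293.0), and ARMCX2 3 against 67, a ratio of 20.2 (6.63 to 101.0). The microRNA locus MIR6514 had 2 against 163 reads, of which 56 of the 57 with DMSO fell in HcRed replicate 2 and all 97 with CSC in 1 HcRed sample.

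Of the lists on the cell cycle, 10 of 36 DNA replication and E2F genes were higher in GFP and 2 lower (33.3%, against 17.7% of all genes). Their median was 0.26, and the licensing factor CDT1 was among the higher genes (log2 0.77). Of 30 mitosis and spindle genes 5 were higher and 11 lower (53.3%), with a median of -0.18. Subtracting the median difference of each gene's own chromosome arm left a median of 0.20 for the replication list. For the mitosis list it left -0.02, and the part of gene position in that shift was not tested. Between the knockout and the overexpression lines with DMSO, 0 of the 30 mitosis genes were higher in the knockout lines and 27 lower. That was 90%, against 34.9% of all genes, with a median of -0.51. PLK1, the polo-like kinase, had 36, 42 and 49 reads in GFP and 101, 59 and 82 in HcRed (log2 -1.15), and HMMR 207, 186 and 245 against 345, 219 and 383 (log2 -0.79). TOP2A, topoisomerase IIα, was higher at 2694, 2489 and 2966 reads against 1851, 1000 and 1602 (log2 0.65). The same split was seen with the compounds. Replication genes gave 11 higher and 2 lower with CSC, 12 and 1 with BaP, and 10 and 2 with NNK (36.1%, 36.1% and 33.3%). Mitosis genes gave 3 and 12, 2 and 14, and 2 and 9 (50%, 53.3% and 36.7%). Of all genes tested, 22%, 15% and 12.5% were called. Of 20 p53 target genes 3 were higher with DMSO, among them CDKN1A, and 2 lower, a share of 25% beside the 17.7% of all genes. With CSC, BaP and NNK the p53 shares were 20%, 35% and 15%. TP53I3 was among the lower genes, with 23, 17 and 24 against 53, 41 and 49 reads with DMSO (log2 -1.37).

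Some lists had shares of calls nearer to the background of 17.7%. The nuclear-encoded respiratory chain gave 5 higher and 4 lower of 80 (11.2%), the cytosolic ribosomal proteins 4 and 13 of 76 (22.4%) and NRF2 targets 3 and 2 of 20 (25%). Among the stress and lipid lists, heat shock chaperones had 0 higher and 5 lower of 12, the unfolded protein response 1 and 6 of 14, and cholesterol and fatty acid synthesis 6 and 6 of 26, shares of 41.7%, 50% and 46.2% that lay above the background. Clustered histone genes gave 1 higher and 3 lower of 62 with DMSO but 0 and 24 of 61 with CSC, 0 and 11 of 60 with BaP and 0 and 2 of 59 with NNK, and no histone gene passed the test of the difference between treatments. Of 8 aryl hydrocarbon receptor targets, CYP1A1 had 11, 5 and 10 reads in GFP and 2, 0 and 0 in HcRed with DMSO, a ratio of 10.9 (95% counting interval 2.73 to 94.9), while CYP1B1 was lower (log2 -0.95). The CYP1A1 call was lost in DESeq2 (adjusted p = 0.0646) and in limma without HcRed replicate 3 (adjusted p = 0.0676).

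**Figure D2:**
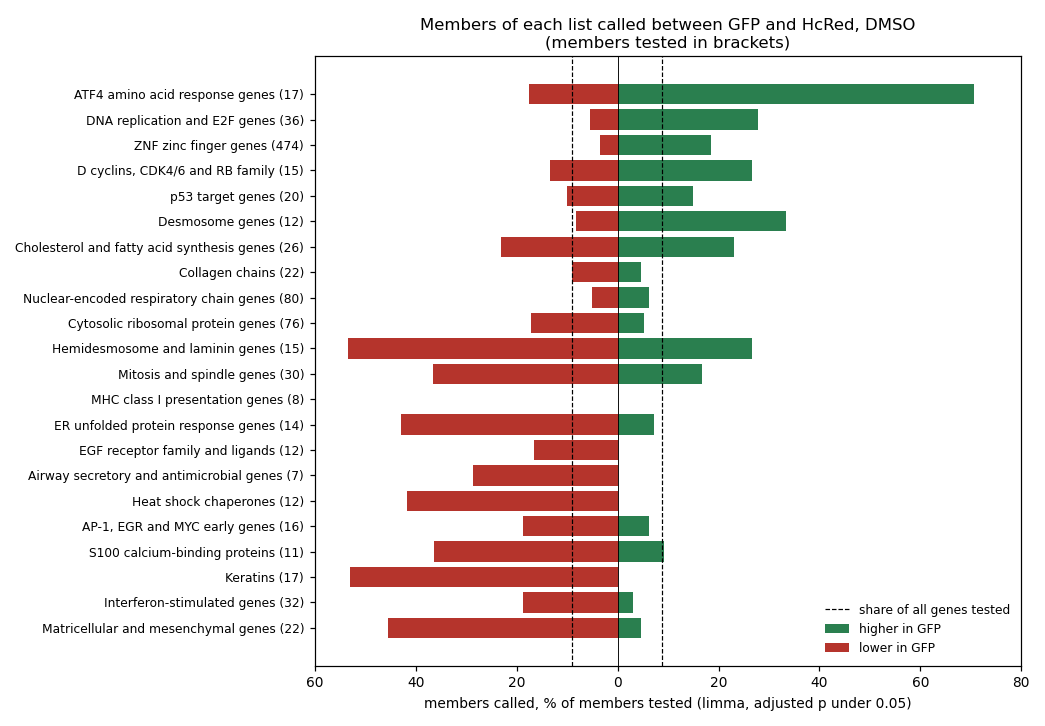
Share of the tested members of each gene list called higher (right) or lower (left) in GFP with DMSO, in percent, with the number tested in brackets and dashed lines at the shares of all genes tested, 8.76% and 8.95%. The ATF4 list reached furthest to the right with 12 of 17 genes, and keratins had 9 of 17 on the left and 0 on the right.

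The zinc finger genes named ZNF, DNA-binding proteins that in large part repress retroelements, were higher in GFP more often than lower. Of 474 tested with DMSO, 88 were higher and 17 lower (22.2%, against 17.7% of all genes), with a median of 0.23. With CSC 116 were higher and 29 lower of 472, with BaP 73 and 13 of 472, and with NNK 49 and 12 of 467. DESeq2 called 40 ZNF zinc finger genes with DMSO against the 105 in limma. Many of these genes lie in clusters on chromosome 19. On 19q 38 were higher and 0 lower of 161, with a median of 0.42, against 27 and 9 of 364 other genes there (median 0.14). On 19p the counts were 21 and 1 of 75 (median 0.49), against 19 and 13 of 352 other genes (median 0.02). Elsewhere in the genome 29 were higher and 16 lower of 237, with a median of 0.04. Examples are ZNF415, with 4, 11 and 12 reads in GFP and 0, 0 and 2 in HcRed, and ZNF662, with 16, 16 and 15 against 3, 2 and 3 (log2 2.11).

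Position on the chromosomes separated the lines beyond chromosome 19. For each sample, the median over the genes of an arm of the gene-centred log2 CPM was taken, and GFP and HcRed were compared over all 24 samples with line labels permuted within treatment. Of 41 arms, 37 passed an adjusted p of 0.05, 20 with higher and 17 with lower medians in GFP, while 10p, 17q, 18p and 21q did not. The smallest p that 100000 draws can give, 1e-05 (adjusted 1.52e-05), was reached by each arm named below.

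The arm furthest apart was 16p, whose 313 genes had a median difference of -0.76 on the log2 scale, a GFP level of 0.589 of that in HcRed. The difference was -0.75 with DMSO, -0.75 with CSC, -0.79 with BaP and -0.76 with NNK. Of 305 genes of 16p tested with DMSO, 0 were higher and 146 lower in GFP (47.9%), while the long arm of the same chromosome differed by 0.12 and had 27 higher and 6 lower of 271. The genes of 16p that were lower are of unrelated function: RPS2, a ribosomal protein, had 118, 143 and 184 reads in GFP and 269, 218 and 241 in HcRed (log2 -0.94), ABCC1, a drug efflux transporter, 31, 44 and 50 against 102, 52 and 85 (log2 -1.16), and the glycolytic enzyme ALDOA and the plakin PPL differed by -0.66 and -0.67. PLK1 also lies on 16p.

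Chromosome arms 4q, 20q and 22q followed, at -0.46, -0.39 and -0.34. With DMSO, 8 genes were higher and 118 lower of 322 on 4q (36.6% lower), 8 and 88 of 261 on 20q (33.7%), and 2 and 61 of 313 on 22q (19.5%). FAT1, a gene of 4q that is knocked out in another line of the study, had 408, 413 and 582 reads in GFP and 792, 417 and 691 in HcRed (log2 -0.67). Of the 1232 genes called lower with a known arm, 413 (33.5%) lay on 16p, 4q, 20q or 22q, which hold 9.06% of the genes tested. Arms with higher medians in GFP were closer to HcRed, with 6p at 0.30, 9q at 0.28, 19q and 4p at 0.26 and 3q at 0.21.

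Within arms, 2 stretches chosen after their values were seen differed from the rest of their arm. The end of 8q (chromosome 8, 143293441 to 145727504) had 0 higher and 34 lower of 50 genes with DMSO and a median of -0.99, with -0.94, -0.83 and -0.95 under the compounds, whereas 8q as a whole differed by -0.20. PLEC and the ribosomal protein gene RPL8 (log2 -0.54) lie in it. On chromosome 11, from 94439597 to 119208019, 1 gene was higher and 38 lower of 100, with a median of -0.42. With the dependence of each library on GC content and gene length removed, a step added after seeing the data, 16p, 4q, 20q and 22q differed by -0.67, -0.52, -0.33 and -0.25. DNA copy number was not measured in these samples, and its part in these differences was not tested. With bulk RNA, fewer cells expressing a gene and less RNA of it per cell cannot be told apart.

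**Figure D3:**
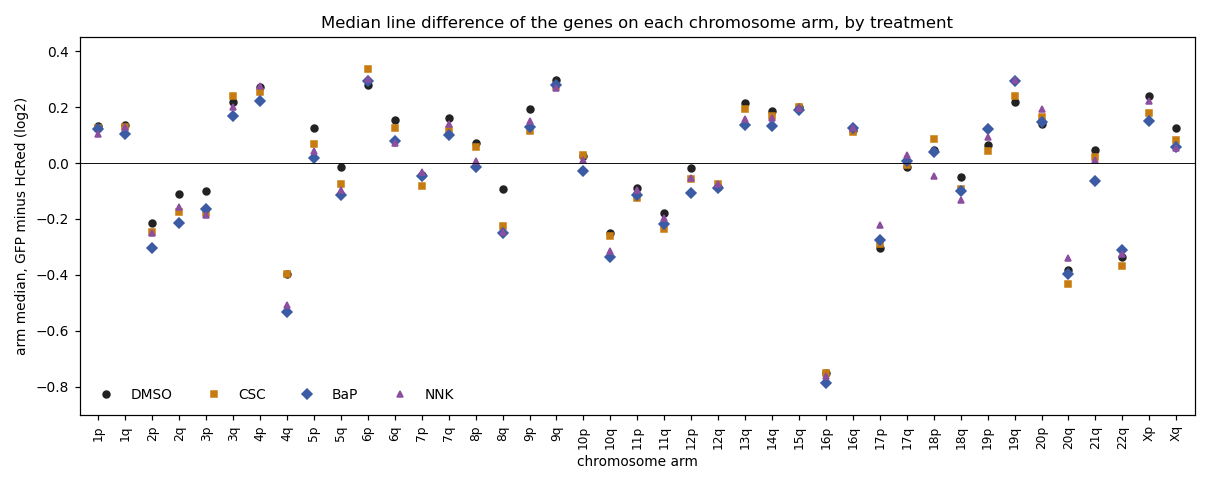
Median log2 difference between GFP and HcRed over the genes of each of 41 chromosome arms, with 1 symbol per treatment. The 4 treatments fell together on 16p, between -0.79 and -0.75, and 4q, 20q and 22q were the next lowest arms over all 24 samples. With BaP, 10q (-0.33) lay below 22q (-0.31).

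To ask whether the difference seen with DMSO held, the same test was run in the samples of each compound, which share none with the DMSO test. It called 3217 of 14590 genes with CSC (22%), 2104 of 13997 with BaP (15%) and 1668 of 13294 with NNK (12.5%, and 1441 genes without GFP replicate 3). Of the DMSO calls tested there, 98.2% had the same sign with CSC, 97.1% with BaP and 96.1% with NNK, against 70.9%, 68.1% and 67.8% of the genes not called with DMSO. Called in the same direction were 1755 genes with CSC (69.7% of the DMSO calls and 54.6% of the CSC calls), 1283 with BaP (51% and 61%) and 1140 with NNK (45.3% and 68.3%). Of genes not called with DMSO, 12.7%, 7.29% and 4.95% were called with CSC, BaP and NNK.

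In all 4 treatments, 819 of the 2494 DMSO calls tested throughout (32.8%) passed in the same direction, 341 higher and 478 lower in GFP, and 622 did so without GFP replicate 3. Counting signs alone, 2310 (92.6%) had the same sign in all 4. The shares in all 4 are not given here for genes not called with DMSO. Of those genes, 67.8% to 70.9% kept their sign with a single compound. The share called in all 4 was 31.7% for DMSO differences up to 1 on the log2 scale, 34.2% from 1 to 2 and 45.4% above 2. Only 3 genes were called in opposite directions in any treatment, LINC01003 and RPPH1 among them, and each lost its DMSO call in DESeq2. RPPH1, the RNA of RNase P, differed by -0.11 with DMSO and by 0.18 and 0.25 with BaP and NNK.

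**Figure D4:**
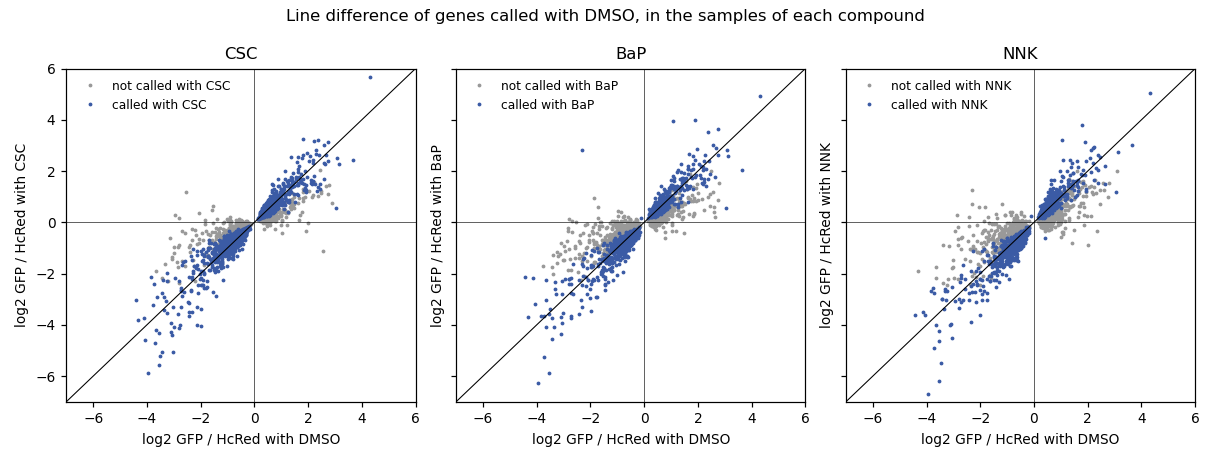
Log2 GFP over HcRed with DMSO (x axis) against the same with CSC, BaP or NNK (y axis) for each gene called with DMSO, in blue where it was also called with the compound. Points lay on the same side of 0 on both axes for 98.2%, 97.1% and 96.1% of the genes.

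Fitting the 24 samples together, the mean line difference over the 4 treatments passed for 6280 of 14186 genes (44.3%). The largest falls in GFP among genes called in all 4 treatments included KRT7 (mean log2 -5.68 ± 0.315) and CCND2 (-4.63 ± 0.221). Among the rises was UGT8, whose HcRed samples held 0 to 2 reads each. FREM2 and MXRA5 are matrix-associated genes. FREM2 had 9, 10 and 16 reads against 5, 1 and 2 (log2 1.80) with DMSO and log2 fold changes of 3.27, 2.28 and 3.78 with CSC, BaP and NNK. MXRA5 had 13, 6 and 24 against 4, 2 and 2 reads (log2 1.89) with DMSO and log2 fold changes of 2.0, 3.99 and 3.13. The difference between treatments passed for neither gene, and both lost the DMSO call in DESeq2 (adjusted p = 0.116 and 0.0552).

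The other 6 lines show which control each gene resembles. Between the knockout and the overexpression lines with DMSO, 5063 of 14505 genes were called (34.9%). Of the DMSO calls between GFP and HcRed, 1056 of 2514 (42%) were called there in the same direction, knockout lines standing in for GFP, and 282 (11.2%) in the opposite one, while 19.6% of all other genes were called in the direction of their GFP difference. For genes lower in GFP the share was 48.1% and for genes higher in GFP 35.7%. These 6 lines carry altered genes, so the knockouts, the overexpressed genes and the vectors cannot be told apart in this contrast.

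KRT7, SPARC and TERT split all 8 lines by vector. KRT7 had 5, 3 and 6 reads in FAT1 and 3, 0 and 9 in CDKN2A cells, against 712, 536 and 556 in NRF2, 487, 485 and 496 in FGFR1, 175, 87 and 120 in NRG1 and 1078, 1537 and 958 in PIK3CA cells. CCND2 did not follow that split, since FAT1 cells had 257, 226 and 166 reads and CDKN2A cells 11, 4 and 6. S100A8 was high in HcRed and NRF2 cells, with 41, 27 and 42 reads in the latter, and at 1.23 to 2.23 log2 CPM in FGFR1, NRG1 and PIK3CA cells. UGT8 reads were found in CDKN2A cells at 23, 41 and 37, a level near that of GFP, and RIC3 had no read in FAT1 or CDKN2A cells although it was high in GFP. PSAT1 was at 9.11 ± 0.111 log2 CPM in GFP and between 7.03 and 8.19 in the other 7 lines. Of the 28 called genes averaging 10 reads or more that were lower in GFP by more than 4-fold, 4 had both knockout lines on the GFP side and all overexpression lines on the HcRed side, and of the 13 genes higher by as much, 0 did.

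The chromosome differences did not all follow the vector. On the gene-centred log2 scale, 16p was at -0.63 ± 0.045 in GFP (SD, n = 3), -0.22 in CDKN2A, 0.08 in FAT1 and 0.13 in HcRed cells, and between 0.15 and 0.35 in the overexpression lines, with the samples of FAT1 within the range of those of HcRed. The end of 8q was at -0.85 ± 0.124 in GFP and between -0.01 and 0.50 in the other 7 lines. GFP was also the lowest line on 22q, at -0.35 against -0.003 to 0.19. On 4q GFP was at -0.37 and FAT1 at -0.33 while CDKN2A was at 0.29. Arm 20q split the 8 lines by vector, at -0.39 in CDKN2A, -0.25 in GFP and -0.13 in FAT1 cells and between 0.06 and 0.38 in the 5 lines of the overexpression vector.

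**Figure D5:**
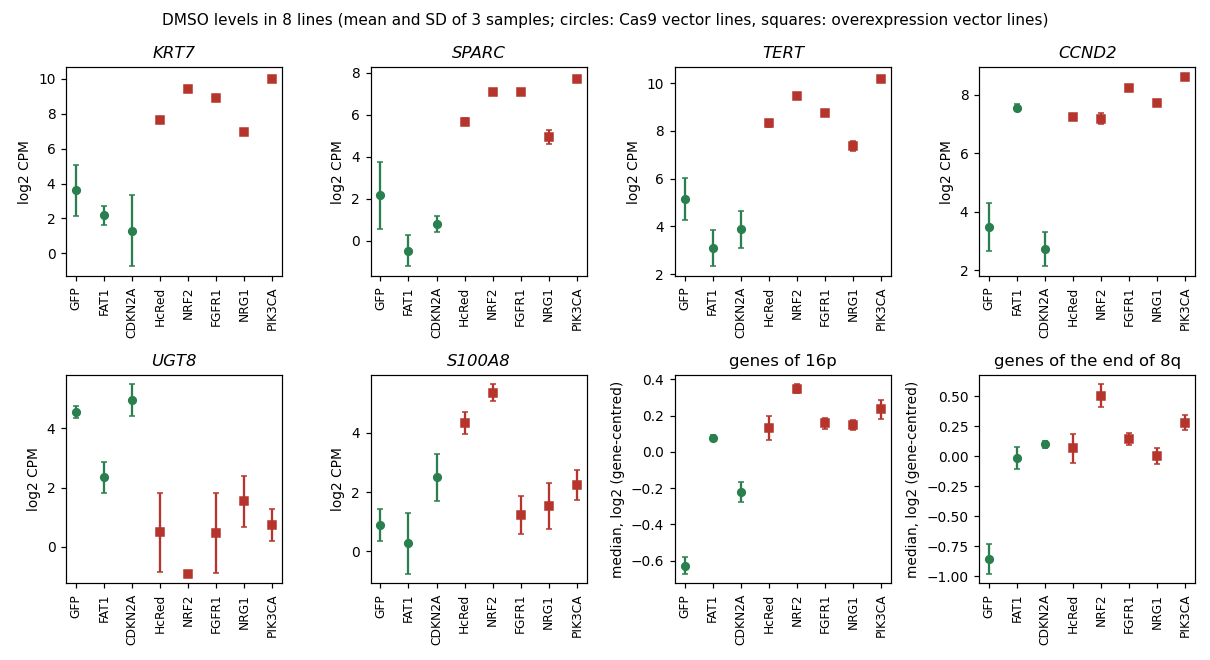
DMSO levels in all 8 lines, as log2 CPM for 6 genes and as the median gene-centred log2 level for 16p and the end of 8q, with mean and SD of 3 samples per line. KRT7, SPARC and TERT were low in GFP, FAT1 and CDKN2A and high in the 5 lines of the overexpression vector, whereas 16p and the end of 8q were lowest in GFP.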

How the data were processed

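The submitters' processing notes name cutadapt 1.12, FastQC 0.11.5, STAR 2.5.2b, featureCounts and the hg19 genome. The deposited values are raw counts of reads per gene that the authors made from these alignments, with no normalization, and whether strand was used in counting is not given in the sources used here. Every sample had a group in its labels, and 0 columns of values were left unused.

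Genes with a mean count above 1 over the samples fitted were scaled by TMM (edgeR 4.0.16) and tested in limma 3.58.1 after voom (R 4.3.3), with Benjamini-Hochberg adjustment over all genes tested. The study also used voom and limma. In its comparison of SFL with microarrays and another sequencing method it restricted the results to the most variable genes, which was not done here. Tests were 2-sided, and each was tested on simulated data. The study counts the samples of a group as biological replicates, but whether they were grown separately before plating is not given in the sources used here, so p-values measure the spread between these samples. Over 24 pairs of replicates, counts differed by 1.14 to 1.82 in chi-square per degree of freedom, above sampling noise in each (largest p 1.41e-21). Intervals and floors cover counting error only. Gene symbols were matched to GENCODE on GRCh37 for positions (24207 of 27978 listed genes, 86.5%).

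The comparison and the gene lists were chosen with earlier results of these data known. Named genes are the 3 D cyclins, the 10 largest rises and falls among called genes that average 10 reads or more and have no overlap between groups, up to 4 called members of each list, the leading genes of the other fits, and genes near absent in 1 line; others are said to have been chosen after their values were seen. Genes that tell sex were left out, and some other genes that the rule names are not reported here. The alternatives tried were DESeq2 1.42.0, the quasi-likelihood test of edgeR, other size factors and filters, a replicate block, leaving out each replicate, and a GC content and length correction that was added after seeing the data.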

Additional observations from a re-analysis of the deposited data

Results flagged for a closer look

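SLC7A11 stood out because its difference between the control lines was not the same in all treatments. With DMSO its log2 fold change, GFP over HcRed, was 1.25, and with CSC the line difference was lower by -0.84 on the log2 scale, a difference tested by the interaction term of the limma fit of 24 samples (adjusted p = 0.00291). In the counts, HcRed cells had 81 to 175 reads with DMSO and 237 to 341 with CSC, and GFP cells 357 to 400 and 291 to 486. Single samples far from their group were not tested for, since each group held 3 samples.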

How the results depend on the processing

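DESeq2 gave fewer calls for the line difference, 989 with DMSO, 1416 with CSC, 760 with BaP, 472 with NNK and 302 held in all 4 treatments, against 2518, 3217, 2104, 1668 and 819 in limma, and the cause was not tested. Leaving out 1 replicate gave 1776 to 2111 calls with DMSO, 2153 to 2946 with CSC, 1178 to 2232 with BaP, 948 to 1441 with NNK, 4649 to 5593 for the mean over treatments, and 35 to 37 arms. The fewest with BaP and NNK came without GFP replicate 1. The test of the difference between treatments called 1 gene, and 3 in edgeR, 0 in DESeq2, 2 with no filter, 3 with the replicate block and 0 to 5 without 1 replicate number. Leaving out 1 of the other 6 lines gave 4339 to 5947 calls. CCND3 changed sign under the GC content correction (0.09), where its adjusted p was 0.76.

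Same-numbered samples did not deviate together (correlations of -0.0677 to 0.0692), and with the replicate block 2716 genes passed with DMSO, 3106 with CSC, 2953 with BaP, 2161 with NNK and 1000 in all 4. Of 92 named genes, 79 kept direction and call in DESeq2 and 13 lost the call, 88 and 4 in edgeR. The number of members called moved by more than 1.5 times in DESeq2 for 9 of 22 gene lists and in edgeR for 0. The libraries with NNK held the fewest reads, and a difference in genes near 3 reads was not detectable at this depth.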

Other observations

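Some gene groups not described above held single members that differed with DMSO, at shares of calls between 12.9% and 21.4% beside the 17.7% of all genes. Of 14 clustered protocadherins tested, adhesion genes read from shared constant exons, 3 were higher in GFP and 0 lower, with a median of 0.31: PCDHGA8 had 17, 8 and 17 reads in GFP and 4, 1 and 3 in HcRed (log2 1.95), and PCDHGA7 and PCDHGB4 differed by 1.54 and 1.30. How reads of the common exons were counted is not given in the sources used here, so single members are uncertain. Of 38 ephrins and semaphorins, 0 were higher and 5 lower, among them the guidance cue SEMA3A with 11, 15 and 15 against 34, 32 and 42 reads (log2 -1.58), which was lower with CSC, BaP and NNK as well (log2 -1.67, -1.87 and -1.75). DKK1, an inhibitor of WNT signalling, had 20, 20 and 46 reads in GFP and 103, 40 and 99 in HcRed (log2 -1.74), whereas the WNT list as a whole gave 1 higher and 3 lower of 31. MT2A, a metallothionein, had 378, 461 and 685 against 881, 524 and 719 reads (log2 -0.73) and was the 1 gene called of 6 metallothioneins.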
